A study of Homo sapiens with 12 samples.

Results

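Cells build cholesterol from acetyl-CoA by way of mevalonate, isoprenoid diphosphates, squalene and lanosterol. The 8 genes described here encode enzymes along that route: HMGCS1, IDI1 and FDPS in the mevalonate stage, FDFT1 and SQLE at the entry to sterols, and LSS, CYP51A1 and DHCR7 in the sterol stage. They were taken by gene symbol from the 20036 genes of the deposited expression table, and all 8 were listed in it. No measured value entered that choice, although the set was put together with earlier results of these data known.

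The cells were MV-4-11, cultured from a human acute myeloid leukaemia, with a KMT2A fusion and a mutated FLT3 kinase on which they depend. The study asked whether blocking the ceramide transfer protein CERT makes such cells more sensitive to FLT3 inhibition. RNA was sequenced in 4 groups of 3 libraries: a combination of crenolanib and HPA-12, crenolanib alone (an inhibitor of the FLT3 kinase), HPA-12 alone (an inhibitor of CERT, which carries ceramide between the endoplasmic reticulum and the Golgi), and the solvent DMSO. The treated groups were sampled at 48 h. No time is given for DMSO and no dose for either compound. All groups are of this 1 line, labelled as bone marrow of wild-type genotype, in serum-containing medium, so lipoprotein cholesterol was present in every group. Nothing in the labels tells whether replicate libraries were separate cultures, so p-values here reflect library-to-library spread, which may be only technical.

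Transcription of these enzymes is controlled by SREBP2, the product of SREBF2. When membrane cholesterol is high, SCAP and INSIG proteins hold SREBP2 in the endoplasmic reticulum. When it is low, SCAP escorts SREBP2 to the Golgi, where proteases release its DNA-binding part, which acts on promoters together with NF-Y and SP1. Leukaemia cells are known to combine this synthesis with uptake of lipoprotein cholesterol.

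RefSeq promoter windows on GRCh38.p14, from 250 bases before to 50 bases after an annotated start, were at hand for 6 of the 8 genes, in 10 windows. For 4 enzymes whose levels went different ways between groups, 1 window each is shown, with HMGCS1 and IDI1, which rose with crenolanib, ahead of FDPS and LSS, which did not. Each is written in the direction of the gene, with the NF-Y motif CCAAT, or its reverse complement ATTGG, in capitals. They lie at chr5:43313363-43313662 on the minus strand for HMGCS1, chr10:1048837-1049136 on the minus strand for IDI1, chr1:155308616-155308915 on the plus strand for FDPS and chr21:46228725-46229024 on the minus strand for LSS. HMGCS1 has 1 further window and IDI1 has 2, and the window shown for each is the one with the most CCAAT matches.
HMGCS1: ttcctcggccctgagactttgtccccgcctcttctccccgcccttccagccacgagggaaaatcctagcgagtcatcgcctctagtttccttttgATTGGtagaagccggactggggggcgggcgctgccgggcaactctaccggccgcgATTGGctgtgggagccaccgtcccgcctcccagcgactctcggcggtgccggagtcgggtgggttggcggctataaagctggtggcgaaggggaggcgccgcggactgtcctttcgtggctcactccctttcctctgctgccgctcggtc
IDI1: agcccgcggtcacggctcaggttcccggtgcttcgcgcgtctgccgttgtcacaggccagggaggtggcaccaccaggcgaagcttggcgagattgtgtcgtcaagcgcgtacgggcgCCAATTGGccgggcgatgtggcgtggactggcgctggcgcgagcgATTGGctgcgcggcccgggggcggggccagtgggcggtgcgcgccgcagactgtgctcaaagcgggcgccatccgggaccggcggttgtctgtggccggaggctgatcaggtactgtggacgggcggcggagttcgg
FDPS: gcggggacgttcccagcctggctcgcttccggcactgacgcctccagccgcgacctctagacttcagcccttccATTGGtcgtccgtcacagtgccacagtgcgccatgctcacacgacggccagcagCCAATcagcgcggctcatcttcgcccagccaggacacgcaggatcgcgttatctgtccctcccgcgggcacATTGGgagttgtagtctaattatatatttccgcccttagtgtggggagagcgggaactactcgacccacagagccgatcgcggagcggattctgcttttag
LSS: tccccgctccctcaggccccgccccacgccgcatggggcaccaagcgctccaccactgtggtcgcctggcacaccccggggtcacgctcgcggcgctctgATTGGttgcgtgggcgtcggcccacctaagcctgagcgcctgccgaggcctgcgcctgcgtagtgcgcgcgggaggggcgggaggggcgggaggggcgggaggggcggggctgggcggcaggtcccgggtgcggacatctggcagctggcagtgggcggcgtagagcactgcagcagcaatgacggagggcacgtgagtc
The HMGCS1 window shown holds 2 such motifs, at -155 and -100 from the start, and the other HMGCS1 window holds 0. The IDI1 window shown holds 3, of which those at -132 and -129 overlap as 1 palindrome and the other is at -87, while the further IDI1 windows hold 0 and 2. FDPS has 3, at -176, -122 and -51, and LSS has 1, at -150. Searched on both strands, CCAAT was in 6 of the 10 windows, against 34.6% of all 35116 promoter windows. The SP1 motif GGGCGG was in 9 of the 10, against 45.0% of all windows, and overlaps no CCAAT match. The sterol regulatory element written TCACNCCAC was in 0 of the 10 and in 1.13% of all windows. The 10 windows are not separate: they come from 6 genes, and the HMGCS1 windows overlap each other, as do 2 of IDI1. The matches are letters within a window and no measure of binding.

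Values are FPKM, fragments scaled by transcript length and library total by the authors. FDFT1, squalene synthase, was the most abundant enzyme of the 8 in DMSO cells at 77.5 ± 2.68 FPKM (SD, n = 3), above 96.0% of the genes tested. SQLE followed at 30.01 ± 1.74 FPKM, and FDPS and LSS lay at 18.9 ± 1.76 and 15.8 ± 0.651 FPKM. DHCR7, IDI1 and HMGCS1 averaged 9.73 ± 0.558, 9.10 ± 0.914 and 8.38 ± 0.436 FPKM, between 58.9% and 62.7% of the way up the tested genes. CYP51A1, lanosterol demethylase, was the exception at 0.300, 0.424 and 0.261 FPKM in the 3 DMSO libraries. It stayed under 1 FPKM in all 12 libraries, so 7 of the 8 genes passed the filter of at least 1 FPKM in at least 3 of 12 libraries and were tested.

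The combination libraries stood apart from the other 9. Their estimated depth was 4.40 to 5.07 M reads, against 10.1 to 10.2 M with crenolanib, 12.1 to 12.8 M with HPA-12 and 13.6 to 15.98 M with DMSO. The 13 mitochondrially encoded protein genes took 62.2% of their FPKM, against 36.0% with crenolanib, 21.6% with HPA-12 and 19.8% with DMSO. Summed FPKM of 12 red cell marker genes ran from 27450 to 27920 in the combination, 4368 to 4642 with crenolanib, 217.8 to 224.3 with HPA-12 and 78.61 to 84.73 with DMSO. Of these 12 markers, 12 were past the threshold given below as higher than in DMSO with the combination, beside 14.8% of all tested genes. With crenolanib 12 were, beside 27.4%. With HPA-12 9 were, beside 27.7%, and the means of the other 3 were higher too. Of 12 myeloid markers, 11 were tested. Against DMSO, 2 were higher and 7 lower with the combination, beside 14.8% and 56.5% of all tested genes. With crenolanib 3 were higher and 5 lower, beside 27.4% and 28.9%. With HPA-12 4 were higher and 3 lower, beside 27.7% and 23.0%. The 12 myeloid markers summed to 739.7 to 786.4 FPKM in the combination and 1107 to 1126 FPKM with crenolanib. Their sum was 724.9 to 744.5 FPKM with HPA-12 and 1315 to 1326 FPKM with DMSO. MPO and LYZ had the highest means of these markers in the combination, crenolanib and DMSO groups, and SPI1 and FLT3 with HPA-12. MPO averaged 428.6 FPKM in the combination, 344.3 with crenolanib, 15.95 with HPA-12 and 390.6 with DMSO, and FLT3 averaged 58.4, 130.1, 155.5 and 94.6 FPKM in those groups. CD68, the marker not tested, was near 0 in every group. It was listed at 0 in every combination and crenolanib library. Its highest library value was 0.0767 FPKM with HPA-12 and 0.0681 FPKM with DMSO. Lymphoid markers, 8 genes, summed to 26.37 to 29.41 FPKM in the combination, 28.73 to 40.38 with crenolanib, 53.47 to 57.37 with HPA-12 and 64.86 to 66.49 with DMSO, of which NKG7 made up most, at means of 21.6, 28.2, 47.1 and 60.9 FPKM, while CD8A averaged 2.01, 1.67, 1.04 and 0.513 FPKM. Stromal and epithelial markers, 9 genes, summed to 10.86 to 29.12, 27.24 to 31.43, 62.83 to 65.85 and 15.38 to 17.08 FPKM in those groups, with PECAM1 at means of 6.34, 25.5, 59.1 and 12.2 FPKM. COL1A1 was at 6.81 FPKM and COL3A1 at 8.49 FPKM in combination library 2, and no other library was above 0.337 FPKM for COL1A1 or 0.250 FPKM for COL3A1. FPKM are scaled to each library's own total, and the median change of all tested genes in the combination against DMSO was -0.62 (log2). Scaled to the summed FPKM without mitochondrial genes, that median was -0.52. After median-ratio scaling, which sets each library by the median ratio of its genes to their geometric means, that median was -0.12. Combination results are therefore given as deposited and after median-ratio scaling where they concern the 8 enzymes. The part of these library differences in the results was not tested. In bulk RNA, fewer cells of a type and less RNA per cell cannot be told apart.

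Changes are log2 differences of FPKM + 1 with the standard error of a limma fit over all 12 libraries, p-values adjusted by Benjamini-Hochberg over 11149 genes, threshold 0.05. This scale understates changes of low genes. "Rose" and "fell" are used of changes past that threshold.

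With crenolanib, HMGCS1 and IDI1 rose and the other 5 tested enzymes did not pass. That is 2 of 7 higher, beside 27.4% of all tested genes, and 0 of 7 lower, beside 28.9%. The median change over the 7 was 0.03, against -0.04 over all genes. With HPA-12, SQLE fell and the other 6 did not pass, which gives 1 of 7 lower, beside 23.0% of all genes, and 0 of 7 higher, beside 27.7%. The median of the 7 was 0.09, as was that of all genes. These single-agent calls use a spread shared with the combination libraries. In a fit without those libraries, chosen after seeing the data, 5 enzymes were called with crenolanib and 3 with HPA-12. Beside them, 8617 and 8136 of the 11149 genes were called. With the combination, IDI1 rose and FDPS, FDFT1, SQLE, LSS and DHCR7 fell as deposited, so 1 of 7 was higher, beside 14.8% of all genes, and 5 of 7 lower, beside 56.5%. Their median was -0.85, against -0.62 over all genes. Under median-ratio scaling IDI1 was called higher, 1 of 7 beside 27.2% of all genes, and FDFT1 and SQLE lower, 2 of 7 beside 33.8%. The calls over all genes were then 3036 higher and 3773 lower, in place of 1652 and 6299. Under upper-quartile scaling 1 of the 7 was higher and 2 lower, with 3296 genes higher and 3406 lower.

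**Figure D1:**
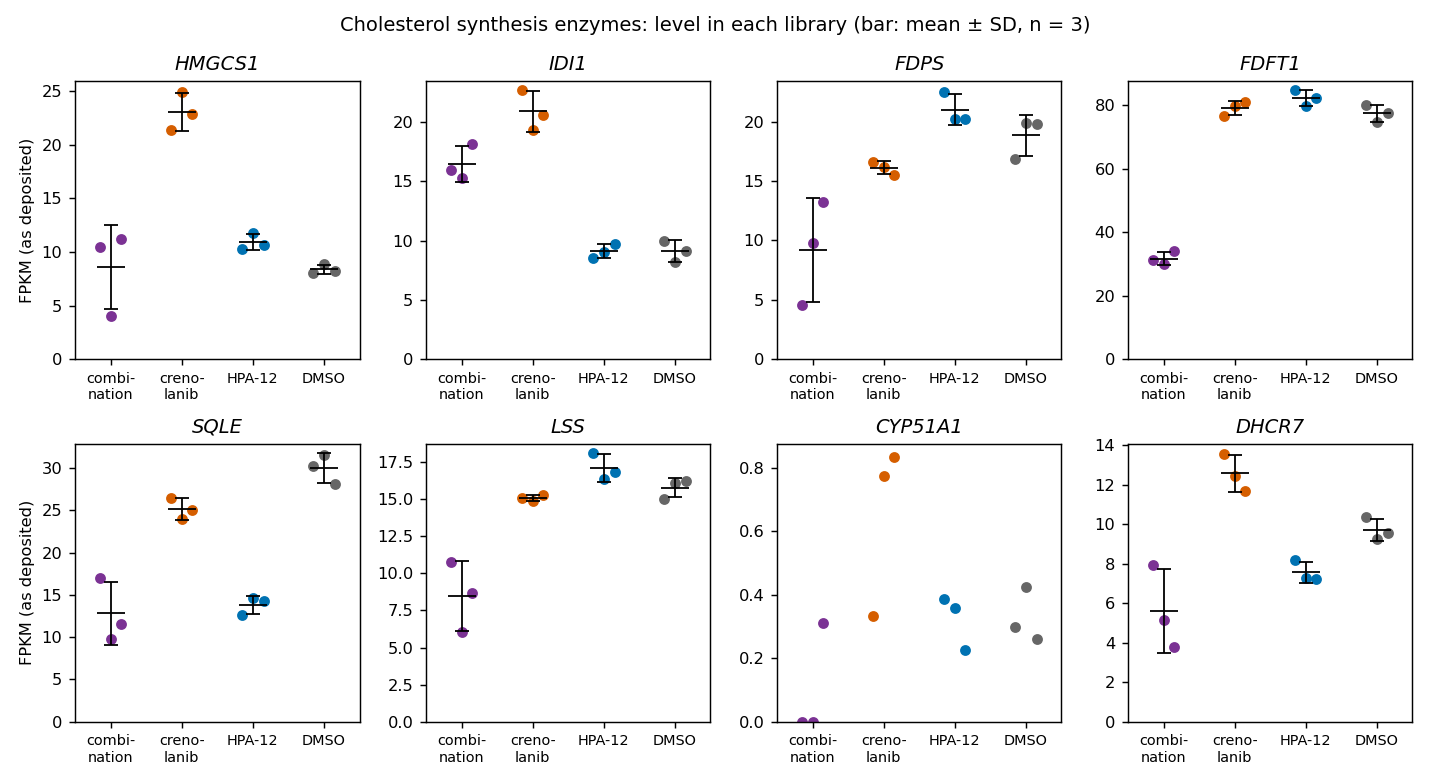
FPKM of each enzyme (y axis, as deposited) in the 3 libraries of each group (x axis: combination, crenolanib, HPA-12, DMSO), with bars at the mean ± SD except for CYP51A1, which is shown by library only. HMGCS1 and IDI1 are highest with crenolanib, SQLE is highest with DMSO, and FDFT1 is at 29.9 to 34.0 FPKM in the combination libraries and at 74.8 FPKM or more in the other 9.

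**Figure D2:**
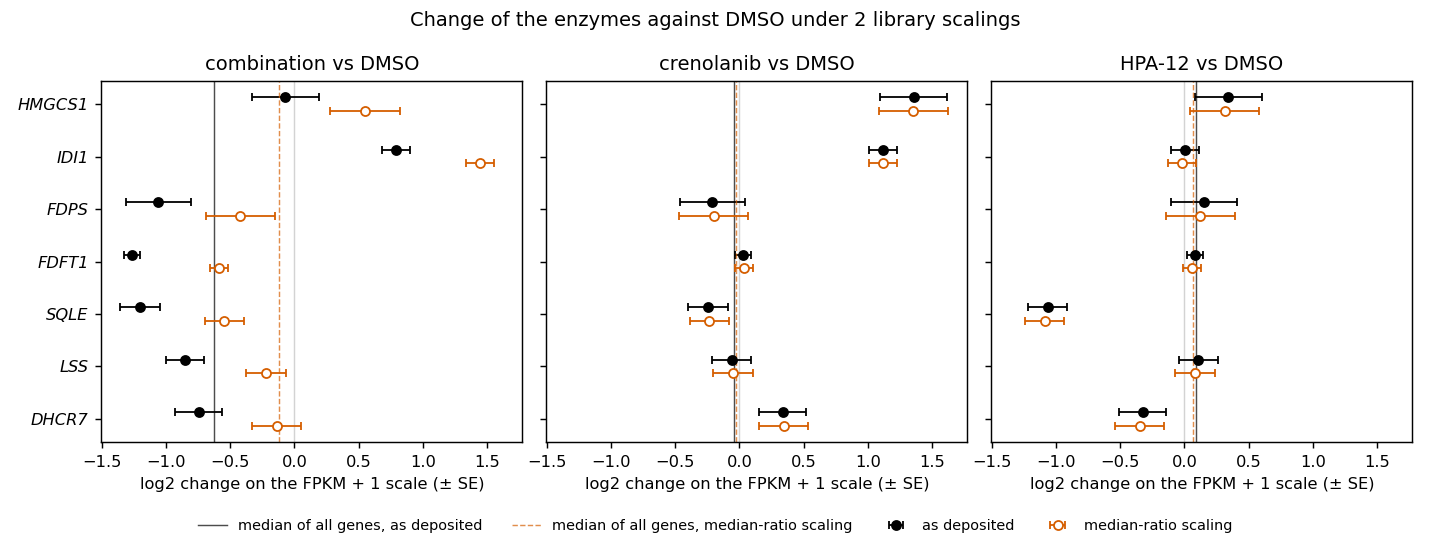
Log2 change (x axis, FPKM + 1 scale, ± SE) of the 7 tested enzymes (y axis) against DMSO, in 1 panel per treated group, as deposited (filled) and after median-ratio scaling (open), with vertical lines at the median of all genes. The scalings nearly coincide for crenolanib and HPA-12, while in the combination panel every open point lies to the right of its filled one.

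HMGCS1, the cytosolic synthase that joins acetyl-CoA and acetoacetyl-CoA ahead of mevalonate, was highest with crenolanib. Its FPKM were 10.5, 4.05 and 11.25 in the combination libraries, 21.4, 24.9 and 22.9 with crenolanib, 10.3, 11.7 and 10.7 with HPA-12, and 8.03, 8.87 and 8.25 with DMSO. Every crenolanib library lay above every other library, while combination library 2 lay below all DMSO libraries and the other two combination libraries above them. The rise with crenolanib was 1.36 ± 0.26 (95% interval 0.79 to 1.93, limma adjusted p = 0.000938). The HPA-12 libraries were all above those of DMSO, but by 0.34 ± 0.26, which did not pass (limma adjusted p = 0.298). That difference did pass without combination library 2 (limma adjusted p = 0.00511), and without all 3 combination libraries (limma adjusted p = 0.00127). Combination less DMSO was -0.07 ± 0.26 (limma adjusted p = 0.815) as deposited and 0.55 (limma adjusted p = 0.0996) after median-ratio scaling, so its sign depended on the scaling. Without combination library 2 the deposited values gave 0.34 (limma adjusted p = 0.00723). Estimated reads behind these values were 96 to 243 in the combination, 1011 to 1197 with crenolanib, 602 to 665 with HPA-12 and 535 to 604 with DMSO.

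IDI1, which interconverts the isoprenoid building blocks isopentenyl and dimethylallyl diphosphate, was the only 1 of the 7 tested enzymes that rose with both crenolanib and the combination. It stood at 15.9, 15.3 and 18.2 FPKM in the combination libraries, 22.75, 19.4 and 20.6 FPKM with crenolanib, 8.56, 9.06 and 9.75 FPKM with HPA-12, and 9.99, 8.17 and 9.15 FPKM with DMSO. The combination and crenolanib libraries lay above all 6 others, and the HPA-12 and DMSO libraries overlapped. The rise was 1.12 ± 0.11 with crenolanib (95% interval 0.89 to 1.35, limma adjusted p = 4.29e-06). With the combination it was 0.79 ± 0.11 as deposited (limma adjusted p = 3.26e-05) and 1.44 under median-ratio scaling (limma adjusted p = 4.41e-07). HPA-12 less DMSO was 0.005 ± 0.11 (limma adjusted p = 0.975). Of the exon bases of IDI1 in GENCODE release 29, 14.8% are shared with IDI2-AS1 on the opposite strand, and whether counting used strand is not given in the sources used here.

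FDPS makes farnesyl diphosphate, from which sterols, dolichol, ubiquinone and prenyl groups all derive. Its level was 4.585, 9.81 and 13.3 FPKM in the combination libraries, 16.6, 16.2 and 15.5 FPKM with crenolanib, 22.55, 20.3 and 20.3 FPKM with HPA-12, and 16.8, 19.9 and 19.8 FPKM with DMSO. All combination libraries were below the other 9, but the lowest of them was far below the highest, on 75 to 227 estimated reads. The fall with the combination was -1.06 ± 0.25 as deposited (limma adjusted p = 0.00266), and after median-ratio scaling the difference was -0.42 and did not pass (limma adjusted p = 0.196). The crenolanib libraries were all below those of DMSO, by -0.21 ± 0.25 (limma adjusted p = 0.498), a difference that passed without the combination libraries (limma adjusted p = 0.0192). The HPA-12 libraries were all above those of DMSO, by 0.15 ± 0.25 (limma adjusted p = 0.646). GENCODE lists 8 pseudogenes named for FDPS, and 18.6% of its exon bases are shared with RUSC1-AS1 on the opposite strand, so its reads may be divided or pooled with these by the authors' counting.

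FDFT1 joins farnesyl diphosphate units into squalene, the step that commits the pathway to sterols. It had 31.1, 29.9 and 34.0 FPKM in the combination libraries, 76.7, 79.6 and 80.9 FPKM with crenolanib, 84.9, 79.6 and 82.2 FPKM with HPA-12, and 80.1, 74.8 and 77.5 FPKM with DMSO. The single agents overlapped DMSO, and the combination libraries were far below all of them. The combination fell by 1.27 ± 0.06 on the log2 scale against DMSO as deposited (limma adjusted p = 5.24e-09), and was at -0.59 after median-ratio scaling, still past the threshold (limma adjusted p = 2.37e-05). Crenolanib less DMSO was 0.03 ± 0.06 (limma adjusted p = 0.702), and HPA-12 less DMSO was 0.09 ± 0.06 (limma adjusted p = 0.275). The best-measured of the 8, FDFT1 rested on 712 to 814 estimated reads in the combination and 4013 to 6662 in the other groups.

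SQLE, squalene epoxidase, makes the oxygenated substrate of sterol ring closure and was highest with DMSO. Its FPKM were 17.05, 9.80 and 11.6 in the combination, 26.5, 23.9 and 25.05 with crenolanib, 12.65, 14.6 and 14.2 with HPA-12, and 30.3, 31.6 and 28.1 with DMSO. No library of a treated group reached the lowest DMSO library. It fell by 1.07 ± 0.15 on the log2 scale with HPA-12 (95% interval -1.40 to -0.73, limma adjusted p = 0.000135), the 1 change among the 7 enzymes with HPA-12. Crenolanib less DMSO was -0.25 ± 0.15 and did not pass (limma adjusted p = 0.195), although it did without combination library 1 (limma adjusted p = 0.0268) and without all 3 combination libraries (limma adjusted p = 0.00565). The combination was lower by -1.20 ± 0.15 as deposited (limma adjusted p = 2.29e-05) and by -0.54 under median-ratio scaling (limma adjusted p = 0.00896).

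LSS closes squalene epoxide into lanosterol, the first sterol. It measured 10.7, 6.05 and 8.68 FPKM in the combination libraries, 15.1, 14.9 and 15.3 FPKM with crenolanib, 18.1, 16.35 and 16.8 FPKM with HPA-12, and 15.04, 16.1 and 16.2 FPKM with DMSO. The crenolanib and DMSO libraries overlapped, those of HPA-12 were slightly above DMSO, and those of the combination were below all. The combination fell by 0.85 ± 0.15 on the log2 scale against DMSO as deposited (limma adjusted p = 0.000278), a difference that was -0.22 and did not pass under median-ratio scaling (limma adjusted p = 0.244). Crenolanib less DMSO was -0.06 ± 0.15 (limma adjusted p = 0.748) and HPA-12 less DMSO 0.11 ± 0.15 (limma adjusted p = 0.572).

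CYP51A1 takes a methyl group off lanosterol, an indispensable step of the route. The table lists it at 0, 0 and 0.313 FPKM in the combination, 0.334, 0.775 and 0.835 FPKM with crenolanib, 0.386, 0.358 and 0.225 FPKM with HPA-12, and 0.300, 0.424 and 0.261 FPKM with DMSO. These levels rest on 0 to 5 estimated reads in the combination, 12 to 30 with crenolanib, 10 to 17 with HPA-12 and 13 to 21 with DMSO. The crenolanib, HPA-12 and DMSO libraries overlapped, and no test was made. In GENCODE release 29, 79.4% of the exon bases of CYP51A1 are also annotated, on the same strand, to AC000120.2 and AC000120.3, and 3 pseudogenes carry its name. Its listed level can therefore depend on how the authors' counting treated shared bases, which was not tested.

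DHCR7 reduces dehydrocholesterol to cholesterol at the end of the route. Its values were 7.93, 5.13 and 3.79 FPKM in the combination, 13.6, 12.5 and 11.7 FPKM with crenolanib, 8.19, 7.27 and 7.23 FPKM with HPA-12, and 10.35, 9.28 and 9.55 FPKM with DMSO. Crenolanib libraries were all above DMSO, and those of HPA-12 and the combination all below it. As deposited, the combination fell by 0.74 ± 0.18 on the log2 scale (limma adjusted p = 0.0031), and by median-ratio scaling the difference was -0.14 (limma adjusted p = 0.555). Crenolanib less DMSO was 0.34 ± 0.18 (limma adjusted p = 0.135) and HPA-12 less DMSO -0.33 ± 0.18 (limma adjusted p = 0.16), neither past the threshold. Both passed in fits with fewer combination libraries: without combination library 1 the adjusted p was 0.0185 for crenolanib and 0.0246 for HPA-12, and without all 3 it was 0.00172 and 0.00251 (limma). The crenolanib difference also passed without combination library 3 (limma adjusted p = 0.0415).

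Set directly against HPA-12, crenolanib gave higher levels of HMGCS1, IDI1, SQLE and DHCR7. That is 4 of 7 higher, beside 19.5% of all tested genes, and 0 of 7 lower, beside 21.6%. The difference was 1.11 ± 0.11 for IDI1 (limma adjusted p = 9.82e-06), 1.01 ± 0.26 for HMGCS1 (limma adjusted p = 0.00904), 0.82 ± 0.15 for SQLE (limma adjusted p = 0.00143) and 0.66 ± 0.18 for DHCR7 (limma adjusted p = 0.0129). FDPS, LSS and FDFT1 differed by -0.36 ± 0.25, -0.17 ± 0.15 and -0.06 ± 0.06, none past the threshold (limma adjusted p = 0.274, 0.387 and 0.497). The FDPS difference passed without combination library 1 (limma adjusted p = 0.0164). Without all 3 combination libraries both FDPS and LSS passed (limma adjusted p = 0.000787 and 0.0259). The median of the 7 was 0.66, against -0.05 over all genes.

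In the combination against crenolanib, all 7 tested enzymes fell as deposited, beside 61.2% of all tested genes that fell and 8.78% that rose. Their median was -0.95, against -0.63 over all genes. The smallest change was -0.33 ± 0.11 for IDI1 (limma adjusted p = 0.0161), which turned to 0.32 after median-ratio scaling (limma adjusted p = 0.0285) and did not pass without crenolanib library 1 (-0.27, limma adjusted p = 0.0703). HMGCS1 fell by 1.43 ± 0.26 (limma adjusted p = 0.000467) and FDFT1 by 1.30 ± 0.06 (limma adjusted p = 1.82e-08). DHCR7, SQLE, FDPS and LSS fell by 1.08 ± 0.18, 0.95 ± 0.15, 0.85 ± 0.25 and 0.79 ± 0.15 (limma adjusted p = 0.000267, 0.000192, 0.0109 and 0.000585). After median-ratio scaling HMGCS1 and FDFT1 were called lower, at -0.80 and -0.63 (limma adjusted p = 0.0304 and 2.95e-05), 2 of 7 beside 26.3% of all genes. IDI1 was then called higher, 1 of 7 beside 19.6%. DHCR7, SQLE, FDPS and LSS were at -0.48, -0.31, -0.22 and -0.17 and did not pass (limma adjusted p = 0.0592, 0.119, 0.533 and 0.41).

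Against HPA-12, the combination had higher IDI1 by 0.79 ± 0.11 (limma adjusted p = 3.42e-05), so 1 of 7 was higher, beside 14.5% of all tested genes. FDFT1, FDPS and LSS were lower by -1.35 ± 0.06, -1.21 ± 0.25 and -0.96 ± 0.15 (limma adjusted p = 3.21e-09, 0.00105 and 0.000107), 3 of 7 beside 57.8% of all genes. After median-ratio scaling IDI1 was at 1.46 and FDFT1 at -0.64, still past the threshold (limma adjusted p = 3.81e-07 and 1.12e-05), while FDPS at -0.55 and LSS at -0.30 were not (limma adjusted p = 0.1 and 0.117). That scaling called 2 of 7 higher, IDI1 and SQLE, beside 27.5% of all genes, and 1 of 7 lower, beside 33.3%. HMGCS1 and DHCR7 gave -0.41 ± 0.26 and -0.42 ± 0.18, which did not pass (limma adjusted p = 0.172 and 0.0571) and turned to 0.24 and 0.21 after that scaling (limma adjusted p = 0.471 and 0.367). Without combination library 3 HMGCS1 gave -0.64 and passed (limma adjusted p = 0.0408), and without combination library 1 DHCR7 gave -0.66 and passed (limma adjusted p = 0.000525). SQLE, low in both groups, differed by -0.135 ± 0.15 (limma adjusted p = 0.445). It gave -0.35 without combination library 1 (limma adjusted p = 0.00695), 0.025 without combination library 2, and 0.54 after median-ratio scaling (limma adjusted p = 0.00938), so its sign depended on library and scaling.

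Whether HPA-12 had the same effect with crenolanib as without it was tested by the interaction, combination less crenolanib minus HPA-12 less DMSO. As deposited it was negative and past the threshold for 5 of 7 enzymes, beside 50.0% of all tested genes, and positive for 0 of 7, beside 15.4%. HMGCS1 had -1.77 ± 0.37 (limma adjusted p = 0.00124), FDFT1 -1.38 ± 0.09 (limma adjusted p = 1.29e-07) and LSS -0.90 ± 0.21 (limma adjusted p = 0.00268). After median-ratio scaling HMGCS1 at -1.12 and FDFT1 at -0.68 passed as negative (limma adjusted p = 0.0279 and 0.000144), 2 of 7 beside 29.5% of all genes. SQLE then passed as positive, at 0.78 (limma adjusted p = 0.00981), 1 of 7 beside 25.4%. LSS, FDPS and DHCR7 were at -0.25, -0.35 and -0.14 after it and did not pass (limma adjusted p = 0.361, 0.465 and 0.694). FDPS had -1.0 ± 0.36 (limma adjusted p = 0.028), which was lost without HPA-12 library 1 (-0.95, adjusted p = 0.0605), crenolanib library 1 (-0.98, adjusted p = 0.0548), crenolanib library 2 (-0.99, adjusted p = 0.0517) or DMSO library 1 (-0.92, adjusted p = 0.0639). DHCR7 had -0.76 ± 0.26 (limma adjusted p = 0.022), lost without HPA-12 library 1 (-0.705, adjusted p = 0.052) or crenolanib library 1 (-0.704, adjusted p = 0.0524). SQLE gave 0.11 ± 0.22 as deposited (limma adjusted p = 0.67) and IDI1 -0.33 ± 0.15 (limma adjusted p = 0.0697), and the IDI1 value passed without combination library 3 (-0.40, adjusted p = 0.0239).

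Ratios between enzymes within a library do not depend on how libraries were scaled. FDFT1 was taken as the denominator, after the values were seen, because it had the most reads. IDI1 was 0.512 to 0.534 of FDFT1 in the combination libraries, 0.243 to 0.297 with crenolanib, 0.101 to 0.119 with HPA-12 and 0.109 to 0.125 with DMSO. The combination ratios thus lay above all crenolanib ratios, and both above all others. FDFT1 itself was lower in the combination than with crenolanib, at -1.30 as deposited and -0.63 after median-ratio scaling (log2). A higher ratio there is therefore not by itself a higher IDI1, which was at -0.33 and 0.32 in that comparison. HMGCS1 was 0.136 to 0.338 of FDFT1 in the combination, with library 2 lowest, 0.279 to 0.313 with crenolanib, 0.121 to 0.147 with HPA-12 and 0.1003 to 0.119 with DMSO. SQLE was 0.328 to 0.548 of FDFT1 in the combination, 0.300 to 0.345 with crenolanib, 0.149 to 0.183 with HPA-12 and 0.363 to 0.422 with DMSO. Here the HPA-12 libraries stood alone at the bottom, and the combination overlapped both crenolanib and DMSO.

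**Figure D3:**
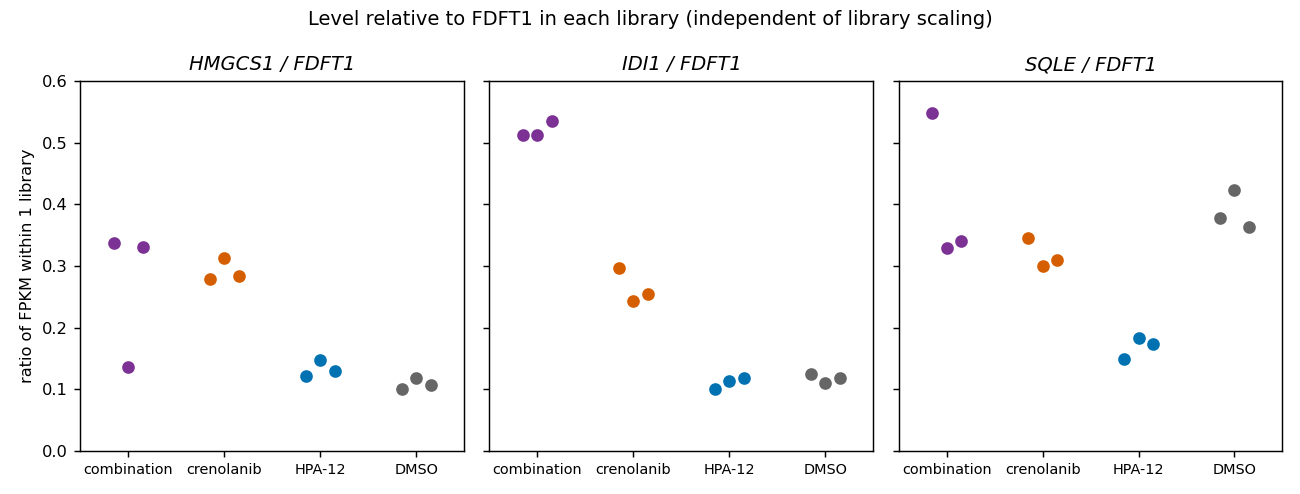
FPKM of HMGCS1, IDI1 and SQLE divided by that of FDFT1 in the same library (y axis), with 1 point per library in each group (x axis). IDI1 relative to FDFT1 is highest in the 3 combination libraries (0.512 to 0.534), where FDFT1 itself is lowest. SQLE relative to FDFT1 is lowest in the 3 HPA-12 libraries (0.149 to 0.183).

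The other 13 listed enzymes of the route were all tested. With crenolanib 6 rose, beside 27.4% of all tested genes, 3 fell, beside 28.9%, and 4 did not pass, with a median of 0.58. MSMO1, the sterol methyl oxidase that follows CYP51A1, rose by 2.57 ± 0.20 (limma adjusted p = 1.05e-06), with means of 44.5 ± 1.39 FPKM against 6.72 ± 1.25 FPKM in DMSO (SD, n = 3 each). IDI2, the isozyme of IDI1, is 1 of the 6 but reached 1 FPKM only in the crenolanib libraries, and so entered the test only through the group where it is high. Its values were 2.79, 2.74 and 2.79 FPKM with crenolanib, against 0.185, 0.109 and 0.214 FPKM in DMSO, and it was listed at 0 in every combination library. SC5D, a sterol desaturase just ahead of DHCR7, rose by 1.40 ± 0.13 (limma adjusted p = 2.67e-06) and MVD, the decarboxylase just ahead of IDI1, by 0.85 ± 0.12 (limma adjusted p = 7.64e-05). With HPA-12 5 of the 13 rose, beside 27.7% of all genes, 3 fell, beside 23.0%, and 5 did not pass, with a median of 0.10. SC5D rose by 0.95 ± 0.13 and MVD by 0.69 ± 0.12, while the sterol reductase TM7SF2 fell by 1.18 ± 0.12 (limma adjusted p = 6.33e-05, 0.000392 and 7.19e-06). In the combination 3 rose, beside 14.8% of all genes, 6 fell, beside 56.5%, and 4 did not pass as deposited. After median-ratio scaling 5 rose, beside 27.2%, 2 fell, beside 33.8%, and 6 did not pass. MSMO1 rose by 1.54 ± 0.20 (limma adjusted p = 2.97e-05) and by 2.19 after that scaling. PMVK, phosphomevalonate kinase, fell by 2.16 ± 0.27 (limma adjusted p = 1.66e-05) and was still called after it, at -1.52. TM7SF2 fell by 0.76 ± 0.12 (limma adjusted p = 0.000108), a call lost after that scaling (-0.16, limma adjusted p = 0.253).

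**Figure D4:**
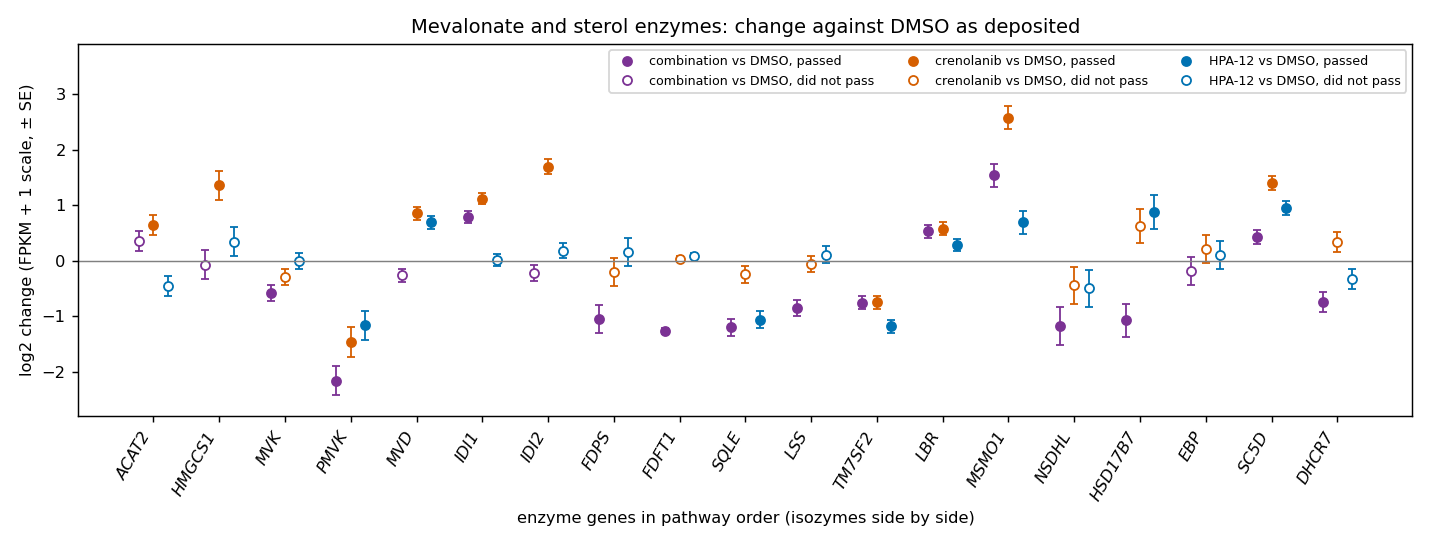
Log2 change against DMSO as deposited (y axis, FPKM + 1 scale, ± SE) of the 7 tested enzymes and 12 further enzymes of the route in pathway order (x axis), with filled points past the threshold and open points not. Crenolanib lies above 1 log2 unit for HMGCS1, IDI1, MSMO1, SC5D and IDI2, the last tested only through its crenolanib values. PMVK, TM7SF2, SQLE, NSDHL and MVK are below DMSO in all 3 treated groups, MVK only slightly with HPA-12.

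Genes of the sterol sensor moved in both directions with the single agents. Of 13 tested, 3 rose and 3 fell with crenolanib, beside 27.4% and 28.9% of all tested genes. With HPA-12 4 rose and 3 fell, beside 27.7% and 23.0%, and the rest did not pass. SREBF2 rose by 0.34 ± 0.07 with crenolanib (limma adjusted p = 0.00104) and by 0.62 ± 0.07 with HPA-12 (limma adjusted p = 1.11e-05), with means of 70.6 ± 0.379 and 86.3 ± 3.15 FPKM, against 55.8 ± 1.02 FPKM in DMSO. INSIG1, itself a target of SREBP2, differed by 0.16 ± 0.07 with crenolanib (limma adjusted p = 0.0783) and fell by 0.28 ± 0.07 with HPA-12 (limma adjusted p = 0.00574). SCAP did not pass with either, at -0.60 ± 0.24 with crenolanib (limma adjusted p = 0.0526) and -0.15 ± 0.24 with HPA-12 (limma adjusted p = 0.635). ERLIN1 and ERLIN2, cholesterol-binding proteins of the endoplasmic reticulum that take part in protein degradation there, fell with crenolanib by 0.73 ± 0.08 and 0.60 ± 0.13 (limma adjusted p = 1.47e-05 and 0.00251). They also fell with HPA-12, by 0.86 ± 0.08 and 0.55 ± 0.13 (limma adjusted p = 4.27e-06 and 0.00497). MBTPS1, a protease that cleaves SREBP2, fell by 0.42 ± 0.09 with crenolanib (limma adjusted p = 0.00247).

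In the combination 2 of these 13 rose and 10 fell as deposited, beside 14.8% and 56.5% of all tested genes. After median-ratio scaling 3 rose and 5 fell, beside 27.2% and 33.8%. ERLIN1 and ERLIN2 fell, at -2.04 ± 0.08 and -1.42 ± 0.13 (limma adjusted p = 9.47e-10 and 1.57e-06), and so did SCAP at -1.73 ± 0.24 (limma adjusted p = 4.73e-05). These were still called after that scaling, at -1.37, -0.80 and -1.10. INSIG1 fell by 1.01 ± 0.07 (limma adjusted p = 1.19e-07), or -0.32 after that scaling. The SREBF2 fall of 0.82 ± 0.07 (limma adjusted p = 3.58e-07) was lost under it (-0.14, limma adjusted p = 0.109).

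Other branches draw on FDPS products for prenyl groups, dolichol and ubiquinone. Of 12 genes tested, 1 rose and 3 fell with crenolanib, beside 27.4% and 28.9% of all genes, and 1 rose and 5 fell with HPA-12, beside 27.7% and 23.0%. ICMT, which methylates prenylated proteins, fell by 1.13 ± 0.14 with crenolanib (limma adjusted p = 3.31e-05) and 0.64 ± 0.14 with HPA-12 (limma adjusted p = 0.00239), with means of 13.7 ± 0.594 and 19.7 ± 2.28 FPKM, against 31.1 ± 1.33 FPKM in DMSO. PDSS1, for the ubiquinone tail, fell by 0.81 ± 0.30 with crenolanib (limma adjusted p = 0.0375), a call lost after median-ratio scaling (adjusted p = 0.0542), and by 1.45 ± 0.30 with HPA-12 (limma adjusted p = 0.00181). NUS1, for dolichol, fell by 0.71 ± 0.15 with HPA-12 (limma adjusted p = 0.00224), and PGGT1B, a geranylgeranyl transferase subunit, rose by 0.92 ± 0.21 with crenolanib (limma adjusted p = 0.00298). In the combination 0 of 12 rose and 9 fell as deposited, beside 14.8% and 56.5% of all genes, and 1 rose and 3 fell after that scaling, beside 27.2% and 33.8%. ICMT fell by 2.21 ± 0.14 (limma adjusted p = 4.46e-08) and was at -1.59 after that scaling. FNTA, a farnesyl transferase subunit, fell by 1.00 ± 0.15 (limma adjusted p = 0.000103), or -0.44 after that scaling, and its call was lost under upper-quartile scaling (adjusted p = 0.0847). DHDDS, the partner of NUS1, fell by 1.06 ± 0.23 (limma adjusted p = 0.00125), a call lost after median-ratio scaling (-0.51, adjusted p = 0.0914).

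Cholesterol storage, transport and efflux genes, 12 of 14 tested, held changes in both directions. ABCA1, the exporter that loads cholesterol onto apolipoproteins, rose by 1.72 ± 0.17 with crenolanib (limma adjusted p = 5.08e-06) and 2.17 ± 0.17 with HPA-12 (limma adjusted p = 8.63e-07), with means of 4.49 ± 0.394 and 6.53 ± 0.826 FPKM, against 0.666 ± 0.117 FPKM in DMSO. NPC1, which exports cholesterol from lysosomes, rose by 1.27 ± 0.12 with HPA-12 (limma adjusted p = 4.31e-06). SCARB1, the receptor for high-density lipoprotein, fell by 1.44 ± 0.12 with crenolanib and 1.51 ± 0.12 with HPA-12 (limma adjusted p = 1.68e-06 and 1.24e-06). Lysosomal lipase LIPA fell by 0.53 ± 0.10 with HPA-12 (limma adjusted p = 0.00108), and the sterol receptor NR1H2 and endosomal STARD3 fell by 0.70 ± 0.06 and 0.53 ± 0.10 with crenolanib (limma adjusted p = 3.46e-06 and 0.000919). Counts over the 12 were 2 higher and 3 lower with crenolanib, beside 27.4% and 28.9% of all genes, and 3 higher and 2 lower with HPA-12, beside 27.7% and 23.0%. The combination had 1 higher and 6 lower as deposited, beside 14.8% and 56.5%, and 4 higher and 5 lower after median-ratio scaling, beside 27.2% and 33.8%. There SCARB1, OSBP (a sterol exchanger at Golgi contacts), STARD3 and NR1H2 fell by 1.99 ± 0.12, 1.58 ± 0.09, 1.26 ± 0.10 and 0.86 ± 0.06 (limma adjusted p = 3.52e-08, 1.52e-08, 3.73e-07 and 2.05e-07). After that scaling they were at -1.44, -0.95, -0.63 and -0.19, all still called, though NR1H2 was not under upper-quartile scaling (adjusted p = 0.313).

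Across the 12 libraries the tested enzymes did not follow 1 profile. On the log2(FPKM + 1) scale the closest pairs were FDFT1 with LSS (Pearson's r = 0.926), FDFT1 with FDPS (0.833) and DHCR7 with SQLE (0.812), while FDPS with IDI1 (-0.471) and IDI1 with LSS (-0.427) ran against each other. The 12 points share 4 groups and the library scaling, so these values only describe the groups' differences. Likeness to the enzymes was measured as Pearson's r over the 12 libraries with the mean of their standardised levels, among 6223 genes. The 10 most alike were ETV6 (0.980), ANKRD17 (0.980), CPSF3 (0.980), MTDH (0.976), YTHDF1 (0.972), MFAP1 (0.971), YTHDF2 (0.969), SDAD1 (0.969), DDX5 (0.963) and CTR9 (0.962). Each of these 10 had its lowest mean in the combination and its highest with crenolanib. They were picked by this likeness on the deposited values, so that shared order is no separate result.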

How the data were processed

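RNA of 12 MV-4-11 libraries was measured. The authors deposited 1 table of FPKM values, with a column for each library, per the file headers. The aligner, counting, strand setting, genome build and annotation were not given in the sources used here. All 12 columns were matched to libraries by name, with 0 left over, reading 2 spellings of crenolanib's short name as 1 compound. No counts were used, so depth was estimated from the steps of low FPKM values with GENCODE release 29 lengths. In the libraries, 30.8% to 39.7% of values under 20 estimated reads came out whole within 0.01 read, so depths are rough.

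The filter kept genes at 1 FPKM or more in 3 or more of 12 libraries. limma 3.58.1 (R 4.3.3, statmod 1.5.0) was run on log2(FPKM + 1) with 4 groups, 8 residual degrees of freedom, moderated with trend and robust options, two-sided, Benjamini-Hochberg over all 11149 genes, threshold 0.05. The design had a count test planned in case of counts, which was not needed. The fit was tested on simulated data. Promoter sequences are RefSeq's. Named genes are all 8 enzymes, up to 4 genes with the smallest p per pathway list and comparison with DMSO, INSIG1, SREBF2 and SCAP always, and the 10 genes most alike; some results under this rule are not reported here. The members and lists were chosen with earlier results of these data known. Alternatives covered scaling, filter, pseudocount, spread, replicate block and leaving out libraries.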

Additional observations from a re-analysis of the deposited data

Results flagged for a closer look

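For 5 enzymes the change seen when HPA-12 was added to crenolanib differed, as deposited, from the change with HPA-12 alone, by limma's interaction test over all 12 libraries. These were 5 of 7 negative, beside 50.0% of all tested genes, and 0 of 7 positive, beside 15.4%. The differences, in log2 units with adjusted p, were -1.77 for HMGCS1 (0.00124), -1.38 for FDFT1 (1.29e-07), -1.0 for FDPS (0.028), -0.90 for LSS (0.00268) and -0.76 for DHCR7 (0.022). After median-ratio scaling HMGCS1 and FDFT1 were still past the threshold and FDPS, LSS and DHCR7 were not. The median over all tested genes was -0.65 as deposited and -0.13 after that scaling.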

How the results depend on the processing

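Of 1092 alternative values for the 49 enzyme results, 998 kept direction and side of the threshold, 38 newly passed, 34 no longer passed and 22 changed sign. The cause of a change was not tested except where fewer genes or samples entered by construction. Without the combination libraries, 3 and 5 enzymes were called with HPA-12 and crenolanib against DMSO, beside 8136 and 8617 genes. That fit, chosen after seeing the data, called 7581 genes for crenolanib against HPA-12. With only the groups compared, 3 and 5 enzymes were called with HPA-12 and crenolanib against DMSO, beside 8672 and 8415 genes. Crenolanib against HPA-12 then had 7147 genes. With a spread per group these were 3 and 4 enzymes, beside 8619 and 8522 genes, and 7239 genes. Leaving mitochondrial genes out of the total gave 2 enzymes with HPA-12 and 4 with crenolanib, beside 5814 and 6134 of the 11149 genes. Under median-ratio and upper-quartile scaling, called enzymes were 3 and 3 for the combination against DMSO, 3 and 4 against crenolanib, and 3 and 3 for the interaction. Genes called under those scalings were 6809 and 6702 for the combination against DMSO, 5112 and 5252 against crenolanib, and 6115 and 6246 for the interaction. With a mean of at least 5 FPKM, genes called against DMSO were 3698 (HPA-12), 4102 (crenolanib) and 5197 (combination). The same filter gave 5051 and 5134 genes for the combination against crenolanib and HPA-12, and 4633 for the interaction.

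Leaving out each library in turn gave 1 to 2 enzymes and 4627 to 6606 genes with HPA-12, 2 to 4 and 5323 to 7194 with crenolanib, and 6 to 7 and 7346 to 8292 with the combination against DMSO. It gave 6 to 7 enzymes and 7091 to 8093 genes for the combination against crenolanib, and 4 to 6 and 7474 to 8366 against HPA-12. Crenolanib against HPA-12 gave 4 to 5 and 3346 to 5726, and the interaction 3 to 6 and 6780 to 7894.

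Signs turned as follows. Under median-ratio scaling, IDI1 was at -0.021 with HPA-12 against DMSO, HMGCS1 at 0.55 with the combination against DMSO, and IDI1 at 0.32 for the combination against crenolanib. For the combination against HPA-12 that scaling gave 0.24 for HMGCS1, 0.54 for SQLE and 0.21 for DHCR7, and 0.35 for the interaction of IDI1. Upper-quartile scaling gave 0.65 for HMGCS1 with the combination, 0.28 for IDI1 against crenolanib, and 0.26, 0.56 and 0.23 for HMGCS1, SQLE and DHCR7 against HPA-12. It also gave 0.091 for LSS with crenolanib, 0.048 for FDFT1 between crenolanib and HPA-12, and 0.23 for the interaction of IDI1. Without mitochondrial genes LSS was at 0.062 with crenolanib and HMGCS1 at 0.053 with the combination against DMSO. IDI1 with HPA-12 was at -0.039 without HPA-12 replicate 3 and -0.063 without DMSO replicate 2. With 1 library left out, HMGCS1 in the combination ran from -0.30 to 0.34 against DMSO, SQLE from -0.35 to 0.025 against HPA-12, and the interaction of SQLE from -0.10 to 0.27, with the turned signs without combination replicates 2, 2 and 1 in that order.

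Same-numbered libraries of different groups deviated together with r of -0.029 to 0.068, beside -0.096 to 0.064 for other pairs. With values so low, the numbers were not taken as pairs. That 8 of 12 libraries correlated best with their own number is no reason against pairing, so a block fit is given too. With the replicate number as a block, 5539, 6150 and 7907 genes were called for HPA-12, crenolanib and the combination against DMSO. The block gave 7749 and 8009 for the combination against crenolanib and HPA-12, 4426 for crenolanib against HPA-12 and 7243 for the interaction. Of the enzyme calls it changed 1: DHCR7 in the combination against HPA-12 passed (-0.42, limma adjusted p = 0.0312). Depth limits CYP51A1 most, with at most 30 estimated reads in a library.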
